A study of Saccharomyces cerevisiae with 60 samples.

Results

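The ribosomal DNA (rDNA) of budding yeast is an array of repeat units on chromosome XII, of which the reference sequence holds 2 copies. Its members here are the 348 consecutive 50 bp windows of chromosome XII that end at 468950, of 241434 windows counted in all, and they were chosen by position alone. The first unit holds the 35S genes (up to 458400) and the spacer with the replication origin (458401 to 459700). Next come 1 window taken as the 5S gene (459701 to 459750) and the spacer with the fork barrier (20 windows from 459751). Segments are whole windows, so the ends of a gene can lie in a neighbouring segment. The second unit repeats the 35S genes, the origin spacer and the 5S gene up to the last window. The deposited files name no genome build, and positions are those of the files' windows.

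The libraries are ChIP-seq of 20 groups with 3 libraries each, 60 in all, from a study of strains that express an epitope-tagged bacterial LexA protein as a control for non-specific enrichment. The MOP, FLOP and HOP strains express LexA fused to MYC, FLAG or HA, from the ADH1 promoter (MOP, HOP) or the TEF1 promoter (FLOP), with constructs placed next to ADE2 on chromosome XV (MOP, FLOP) or TRP1 on chromosome IV (HOP). Strains were W303 derivatives grown in YEPD at 23 °C and crosslinked with 1% formaldehyde for 15 min, and the G1 groups were held with α-factor for about 3.5 h.

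The 8 G1 groups were Sir2-FLAG (FLOP) and Fkh1-FLAG (FLOP) with the FLOP control (anti-FLAG M2), Fkh1-MYC (MOP) with the MOP control (anti-MYC), and Orc1-HA (HOP) and Mcm4-HA (HOP) with the HOP control (anti-HA 12CA5). The 12 unsynchronized groups were Fkh1-MYC (MOP), Fkh1-FLAG (FLOP), Fkh1-MYC and Fkh1-FLAG without a LexA construct, fkh1-dbm-MYC and fkh1-dbm-FLAG, in which a Fkh1 with changes in its DNA-binding surface replaces Fkh1 and which also lack LexA, the MOP, FLOP and HOP strains, and an untagged wild type with each antibody. The unsynchronized HOP and untagged anti-HA groups were precipitated with 12CA5 and 16B12 together. Orc1-HA and Mcm4-HA share the HOP G1 libraries as their control, and Sir2-FLAG and Fkh1-FLAG share the FLOP G1 libraries.

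RNA polymerase I transcribes the 35S precursor of the 18S, 5.8S and 25S ribosomal RNAs from a promoter at the high-coordinate end of the 35S segment, next to the origin spacer, and RNA polymerase III transcribes the 5S gene. Each unit holds a replication origin, to which the origin recognition complex (with its subunit Orc1) binds and at which the MCM helicase (with its subunit Mcm4) is loaded in G1. At the fork barrier, the Fob1 protein halts replication forks that would run against 35S transcription. The histone deacetylase Sir2 acts at the array within the RENT complex, where it lowers recombination and silences RNA polymerase II genes placed in the spacers. Fkh1 is a forkhead transcription factor that also acts at a subset of origins.

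A window's level is its count divided by the 20th percentile of all windows of its library, the background scale of the study. A window's density is its count divided by the mean of the 348 windows of the same library, so a density of 1 is the rDNA mean and the number of repeats drops out. Shares add up to a fixed total, so a higher density in one segment goes with a lower one elsewhere. Between strains, the number of repeats and the level per repeat cannot be told apart. Summed counts per library ran from 2116658 to 44263661, and the 20th percentile was between 5 and 125 counts, so levels are coarse where it is small. Single rDNA windows were counted more deeply, with 641 to 60608 reads in the highest window of a library. The files label the libraries of a group as replicates with no word on separate cultures, so p-values cannot be taken to measure the spread between cultures. The window tests below also drew their estimate of spread in part from all windows tested. Their p-values and SEs thus do not rest on the libraries' values at that window alone.

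The copies in the reference gave nearly the same profile. Over 155 pairs of windows one unit length (9137 bp) apart, the correlation between copies had a median of 0.999 over the 60 libraries and a range of 0.890 to 1.000, and the ratio of the first copy's sum to the second's was 0.990 to 1.013. A read of the array can lie on either copy, so the copies are no replicates of each other. The second 5S window lies at the edge of the array, and its density was lower than that of the first in every group, at 0.324 ± 0.043 and 1.42 ± 0.12 in untagged anti-MYC cells (SD, n = 3 each).

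The rDNA took a very unequal part of the libraries. Its mean level was 1879 ± 517 in HOP G1 cells (SD, n = 3), where 61.0% of all counts lay in the 348 windows, 1834 ± 115 in Orc1-HA (HOP) G1, 1664 ± 858 in Fkh1-MYC (MOP) G1, 1326 ± 333 in Mcm4-HA (HOP) G1, 766 ± 313 in Sir2-FLAG (FLOP) G1 and 661 ± 325 in MOP G1 cells. The unsynchronized groups lay between 335 ± 15.1 in Fkh1-FLAG and 69.8 ± 27.4 in untagged anti-MYC cells. The lowest mean of all, 69.0 ± 7.1, was that of FLOP G1 cells, where the rDNA took 6.75% of counts, and Fkh1-FLAG (FLOP) G1 was at 115 ± 61.4. The 6 highest means thus belonged to G1 groups, and so did the lowest. Levels depend on the scale: divided by the median of all windows instead, every mean was lower, 10 of the 20 by more than their SD. On that scale the 6 highest means were again those of G1 groups, but Orc1-HA (HOP) G1 was first at 1269 with HOP G1 at 1203, and untagged anti-MYC was last at 48.4 with FLOP G1 at 54.0. In the order of the 20 means scaled by the 20th percentile, 1 pair of neighbours, MOP G1 and Fkh1-FLAG, did not overlap in its libraries, and the other 18 pairs overlapped.

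**Figure D1:**
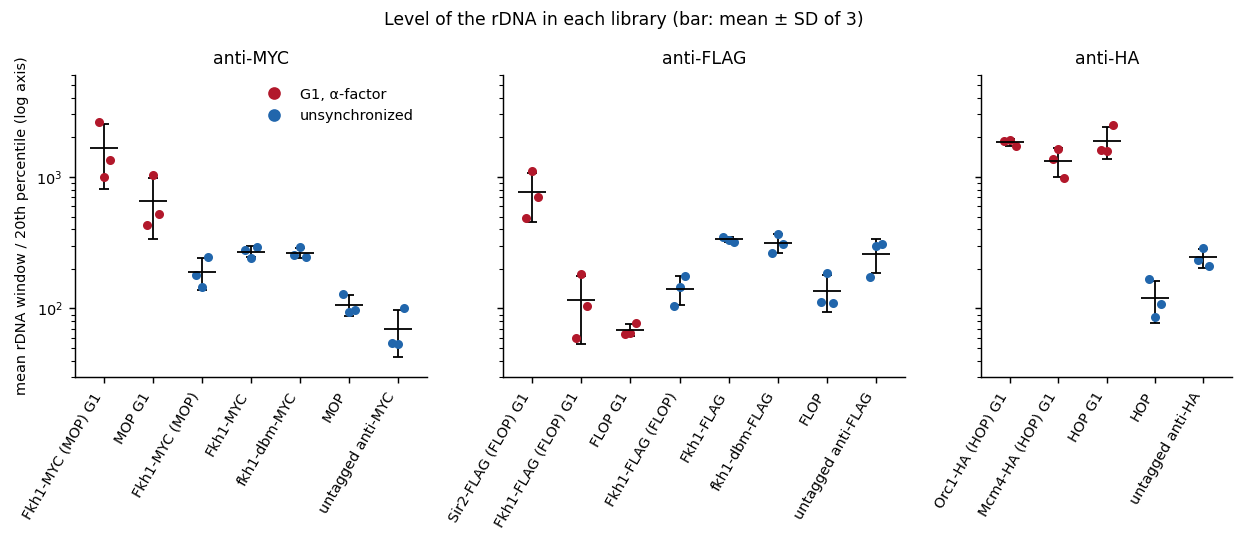
Mean level of the 348 rDNA windows (count divided by the library's 20th percentile, log axis) in each of 60 libraries (points), by group and antibody, with the mean and SD of 3 as bars. The HOP G1 libraries lie at 1592, 1568 and 2476 and the unsynchronized HOP libraries at 167, 86.0 and 107, while the FLOP G1 libraries lie at 64.1, 65.7 and 77.2.

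Sir2-FLAG gave the largest difference in rDNA level between a tagged strain and its LexA control among the 7 such comparisons. The level was 484, 1103 and 709.6 in the Sir2-FLAG (FLOP) G1 libraries, against 64.1, 65.7 and 77.2 in the FLOP G1 libraries. The libraries did not overlap, and the ratio of geometric means was 10.5-fold (log2 3.40, SE 0.35). The two-sided exact permutation p was 0.1, the smallest that 3 against 3 libraries allow, as it is for every comparison below in which groups of 3 do not overlap. A window was called at a Benjamini-Hochberg adjusted p under 0.05, over all windows of the genome, and a fold of at least 1.5 in edgeR's quasi-likelihood test. By level, 348 of 348 rDNA windows were called higher and 0 lower, where 13.3% and 5.73% of all windows were, and their log2 ratios ran from 2.93 to 4.25.

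Within the unit, Sir2-FLAG was denser around the 35S promoter. By share of the rDNA signal, 16 of 348 windows were called higher and 0 lower, where 13% and 5.74% of all windows tested were, those outside the rDNA being compared by level. The array thus held a smaller part of called windows than all windows did. DESeq2 called 16 and 150 windows had an unadjusted p under 0.05. The called windows formed a run of 9 in the first unit (458251 to 458700) and one of 7 in the second (467451 to 467800), each spanning the promoter end of the 35S segment and the first part of the origin spacer. Windows near this promoter end were also called higher for HOP and fkh1-dbm-MYC against untagged cells. At window 458601 density was 1.54, 1.36 and 1.56 in Sir2-FLAG (FLOP) G1 libraries, against 0.822, 0.888 and 0.854 in FLOP G1 libraries. The groups did not overlap there (log2 0.80, SE 0.079, edgeR adjusted p = 8.96e-18). The 5′ external transcribed spacer, the first part of the 35S transcript, had a density of 1.81 ± 0.076 in Sir2-FLAG (FLOP) G1 and 1.28 ± 0.029 in FLOP G1 cells (SD, n = 3 each, 1.41-fold), with no overlap.

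At the fork barrier, Sir2-FLAG and its control peaked at different places. The densest window of that spacer was 460501 in all Sir2-FLAG (FLOP) G1 libraries, with densities of 1.95, 1.58 and 2.20. This place was not particular to Sir2-FLAG, as 460501 was also the densest in all untagged anti-FLAG, fkh1-dbm-FLAG and fkh1-dbm-MYC libraries. In FLOP G1 libraries it was 460201 or 460251, with densities of 2.29, 2.38 and 2.34. The ratio of Sir2-FLAG to the control was highest at the far edge of the spacer (460601 to 460700), at 1.49, 1.15 and 1.70 in the 3 libraries, and no window of the spacer was called by share. Its mean density was 1.41 ± 0.22 in Sir2-FLAG (FLOP) G1 and 1.63 ± 0.049 in FLOP G1 cells, lower in 8 of 9 pairs of libraries. The 5S window had a density of 1.20 ± 0.13 in Sir2-FLAG (FLOP) G1 and 1.57 ± 0.014 in FLOP G1 cells, lower in 9 of 9 pairs (log2 -0.40, SE 0.097).

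**Figure D2:**
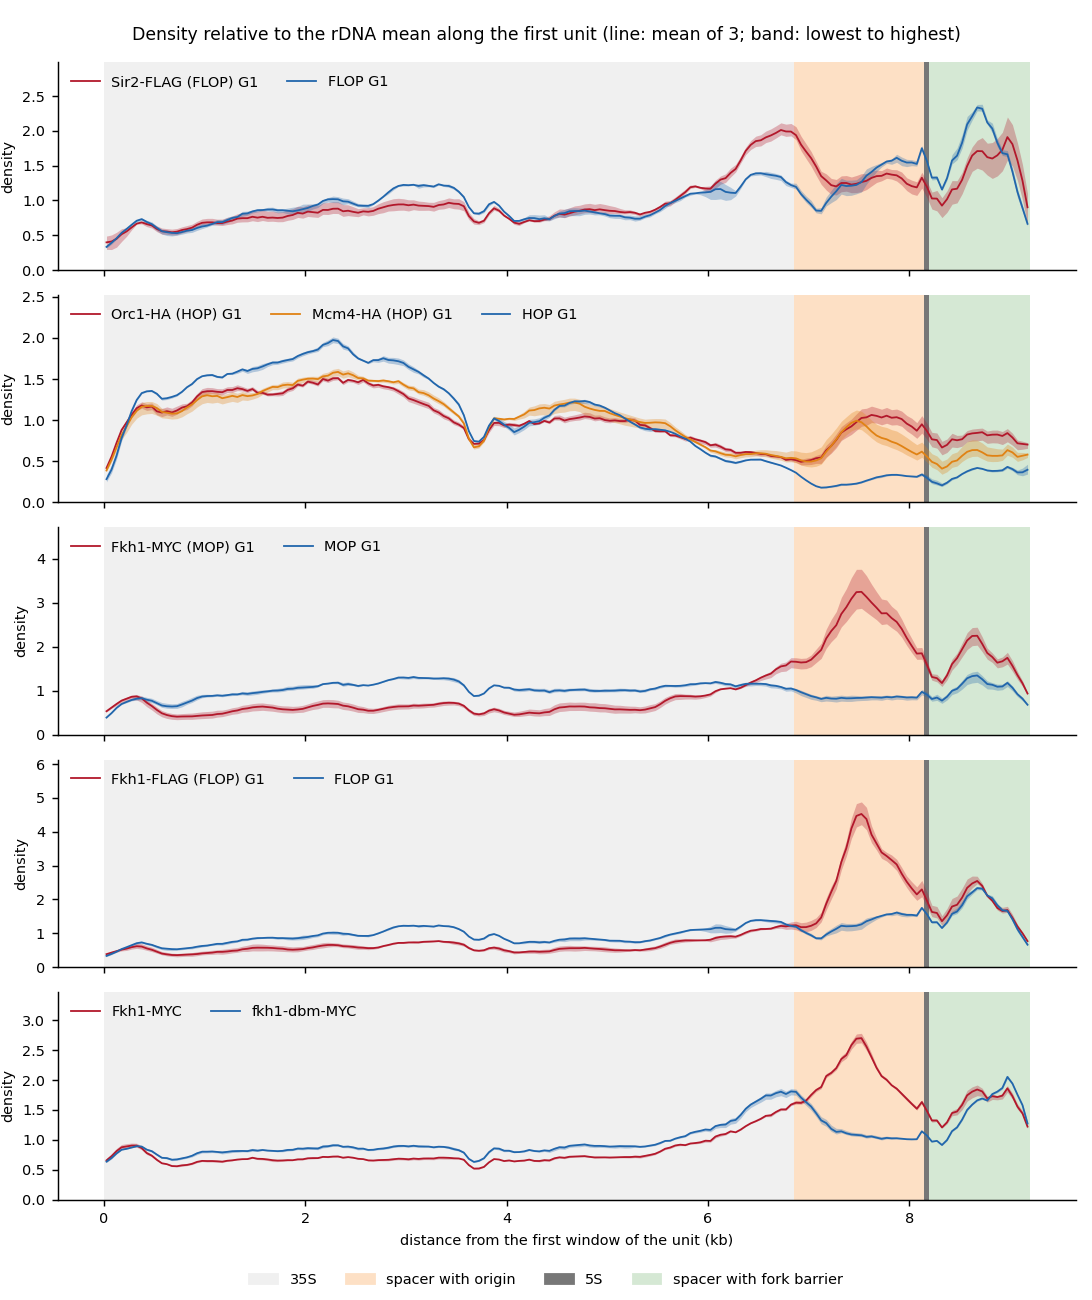
Density along the first rDNA unit (distance in kb from its first window), with a line for the mean of 3 libraries of a group, a band from the lowest to the highest library and shading for the segments. Sir2-FLAG (FLOP) G1 lies above FLOP G1 on both sides of the border between 35S and the origin spacer, with 1.54, 1.36 and 1.56 at window 458601, and the Orc1-HA, Mcm4-HA and Fkh1 groups lie above their controls inside the origin spacer.

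Orc1-HA and Mcm4-HA were both denser over the origin spacer than the HOP control. The origin spacer of both copies had a density of 0.883, 0.733 and 0.815 in Orc1-HA (HOP) G1 libraries, 0.640, 0.627 and 0.821 in Mcm4-HA (HOP) G1 libraries and 0.259, 0.260 and 0.264 in HOP G1 libraries. Neither target overlapped the control, with ratios of 3.10-fold for Orc1-HA (log2 1.63, SE 0.078) and 2.65-fold for Mcm4-HA (log2 1.40, SE 0.13). The HOP G1 control was itself low in this spacer, at a log2 ratio of -1.29 to unsynchronized HOP cells, where the antibodies differed too. The Mcm4-HA libraries overlapped those of unsynchronized HOP, and the Orc1-HA libraries lay above them. How far the low control raised the ratios was not tested. All 9 libraries of Orc1-HA, Mcm4-HA and HOP in G1 cells were still below the rDNA mean in this spacer. The 25S part of the first unit was denser, at 1.29 ± 0.021 in Orc1-HA (HOP) G1, 1.32 ± 0.031 in Mcm4-HA (HOP) G1 and 1.57 ± 0.015 in HOP G1 cells, and it was dense in the unsynchronized anti-HA groups too, at 1.38 ± 0.074 in HOP and 1.56 ± 0.018 in untagged cells.

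At the fold minimum used, Orc1-HA was called over a longer stretch than Mcm4-HA. For Orc1-HA, 74 windows were called higher by share and 0 lower (4.52% and 2.04% of all windows tested). They covered 458451 to 460800 without a gap (47 windows), that is 25 of 26 windows of the origin spacer, the 5S gene, all 20 windows of the fork barrier spacer and the first window of the second 35S copy, and 27 windows of the second unit. For Mcm4-HA, 66 windows were called higher and 0 lower (2.54% and 3.34%). In the first unit they ran from 458451 to 460250 (36 windows) and from 460551 to 460700, with 13 of 20 in the fork barrier spacer. They also covered 27 windows of the second unit. Over the fork barrier spacer the Mcm4-HA log2 ratios had a median of 0.62 and a lowest value of 0.55, just under the fold minimum. For Orc1-HA the median there was 1.09 and the lowest value 0.83. The length of the Mcm4-HA stretch thus depends on that minimum, and the direct comparison of the proteins is given below.

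The largest ratios of the first copy lay in adjacent windows for the 2 proteins. The densest windows of the origin spacer lay further apart, at 459151 in all Orc1-HA (HOP) G1 libraries and 459001 in all Mcm4-HA (HOP) G1 libraries. At window 459001 density was 1.08, 0.877 and 0.976 in Orc1-HA (HOP) G1 libraries, against 0.220, 0.228 and 0.237 in HOP G1 libraries, a 4.27-fold higher share (log2 2.10, SE 0.049, edgeR adjusted p = 2.78e-100). At window 458951 it was 0.938, 0.869 and 1.09 in Mcm4-HA (HOP) G1 libraries, against 0.214, 0.215 and 0.232 in HOP G1 libraries, a 4.39-fold higher share (log2 2.13, SE 0.067, edgeR adjusted p = 1.97e-68). Measured inside the first origin spacer, the ratio stayed above the middle between 1 and its summit over 500 to 650 bp for Mcm4-HA, and over 1050 to 1100 bp for Orc1-HA, where it was still above that height at the end of the spacer. In the fork barrier spacer the ratio was highest in window 459801, at 3.65, 2.85 and 3.33 for Orc1-HA and 1.72, 1.89 and 2.44 for Mcm4-HA.

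Compared directly, Orc1-HA and Mcm4-HA differed in few rDNA windows, a share of the array no higher than that of all windows. By share, 10 windows were called higher in Orc1-HA and 0 lower (3.41% and 0.26% of all windows tested), 7 of them in a run from 459651 to 460000. At window 459851 density was 0.742, 0.578 and 0.681 in Orc1-HA (HOP) G1 libraries, against 0.342, 0.387 and 0.501 in Mcm4-HA (HOP) G1 libraries (log2 0.70, SE 0.073, edgeR adjusted p = 7.17e-18). At window 459001 the log2 ratio was -0.024 with an SE of 0.066 (edgeR adjusted p = 0.943). The count depended on single libraries. It was 3, 2 and 6 without Orc1-HA replicate 1, Mcm4-HA replicate 1 and Mcm4-HA replicate 2, and 20 and 31 without Orc1-HA replicate 2 and Mcm4-HA replicate 3.

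**Figure D3:**
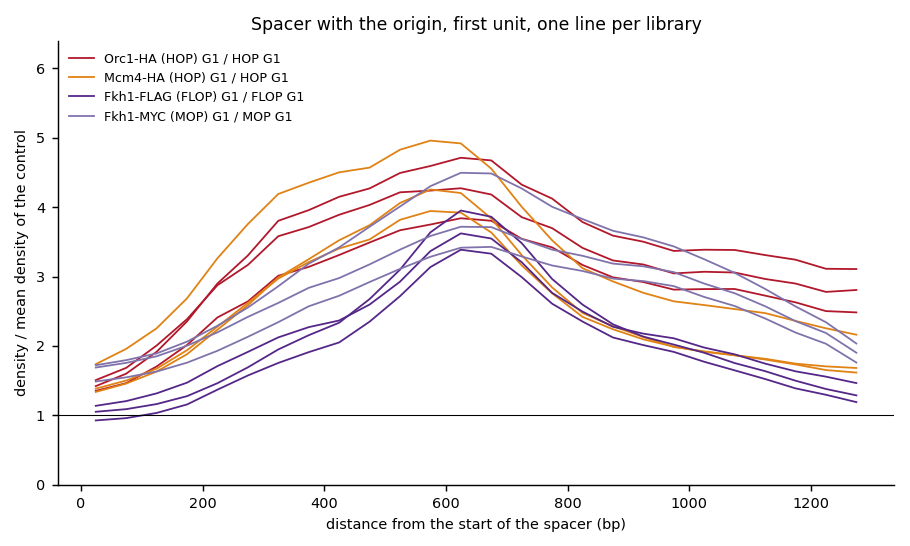
Density of each library divided by the mean density of its control across the origin spacer of the first unit (distance in bp from its start), 1 line per library, for Orc1-HA, Mcm4-HA, Fkh1-FLAG and Fkh1-MYC in G1 cells. The highest points are 4.71, 3.84 and 4.27 for Orc1-HA, 4.25, 3.94 and 4.96 for Mcm4-HA, 3.62, 3.39 and 3.95 for Fkh1-FLAG and 3.43, 4.50 and 3.72 for Fkh1-MYC, all near the middle of the spacer.

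The rDNA level as a whole did not separate Orc1-HA or Mcm4-HA from the control. It was 1879.8, 1918 and 1703 in Orc1-HA (HOP) G1 libraries and 1365, 1638 and 976 in Mcm4-HA (HOP) G1 libraries, against 1592, 1568 and 2476 in HOP G1 libraries. Both targets overlapped the control (two-sided exact permutation p = 1 for Orc1-HA and 0.3 for Mcm4-HA). Single windows were called by level, 71 higher and 0 lower for Orc1-HA (4.52% and 2.05% of all windows tested) and 22 higher and 0 lower for Mcm4-HA (2.53% and 3.36%), and the Mcm4-HA windows all lay in the origin spacers, 11 in each copy. The Mcm4-HA count was 7, 8 and 14 without HOP G1 replicate 1, HOP G1 replicate 2 and Mcm4-HA replicate 1.

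Fkh1 was denser over the origin spacer in all 6 comparisons made, with either tag, in either culture and against either kind of control. In G1 cells the density of this spacer was 2.14, 2.64 and 2.34 in Fkh1-MYC (MOP) libraries, against 0.861, 0.772 and 0.879 in MOP libraries. With the other tag it was 2.81, 2.48 and 2.76 in Fkh1-FLAG (FLOP) G1 libraries, against 1.27, 1.31 and 1.20 in FLOP G1 libraries. Neither pair of groups overlapped, with ratios of 2.82-fold for MYC (log2 1.498, SE 0.10) and 2.13-fold for FLAG (log2 1.09, SE 0.067). In unsynchronized cells it was 2.26, 2.33 and 2.274 in Fkh1-MYC (MOP) libraries, against 0.892, 1.04 and 0.989 in MOP libraries, and 1.66, 1.61 and 1.74 in Fkh1-FLAG (FLOP) libraries, against 0.894, 0.906 and 0.920 in FLOP libraries. These groups did not overlap either, with ratios of 2.35-fold (log2 1.24, SE 0.066) and 1.84-fold (log2 0.88, SE 0.035).

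**Figure D4:**
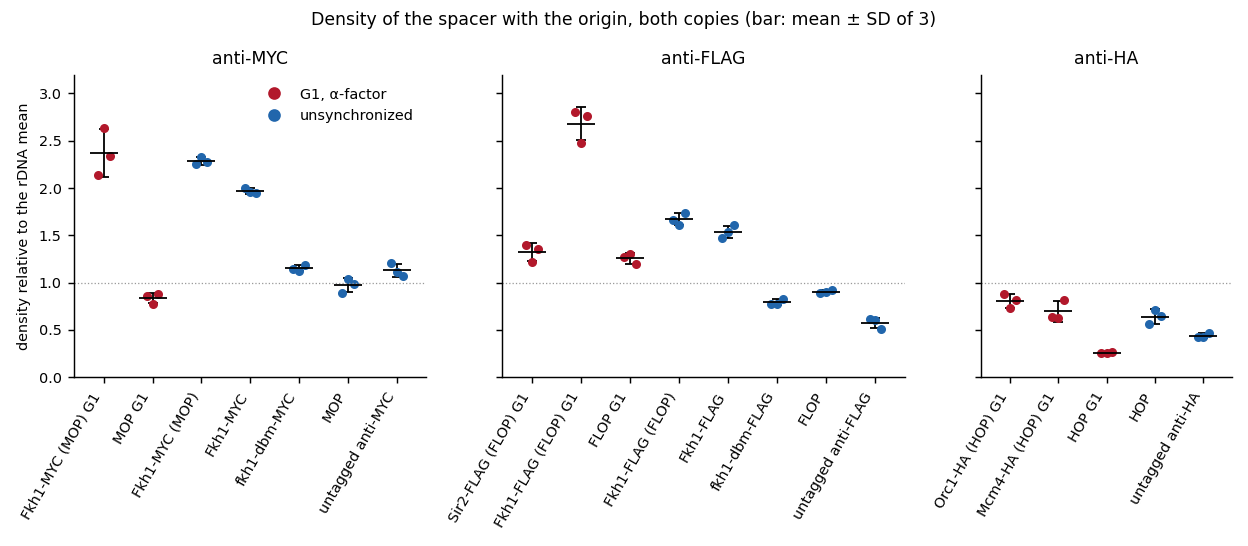
Density of the origin spacer, both copies together, relative to the rDNA mean in each of 60 libraries, by group and antibody, with the mean and SD of 3 as bars. The groups with a tagged Fkh1 that is not mutated lie above all others, with Fkh1-FLAG at 1.47, 1.53 and 1.61 as their lowest and Sir2-FLAG (FLOP) G1 at 1.39, 1.22 and 1.36 as the next group below.

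By share, most of the windows called higher lay in the origin spacers. For Fkh1-MYC (MOP) in G1 cells, 74 windows were called higher and 196 lower (7.04% and 1.22% of all windows tested), with a run of 44 higher windows from 458301 to 460500. For Fkh1-FLAG (FLOP) in G1 cells, 40 were called higher and 176 lower (1.56% and 0.102%), with a run of 20 from 458601 to 459600. In unsynchronized cells, 59 were called higher and 194 lower for Fkh1-MYC (MOP) (3.8% and 0.511%), and 45 higher and 8 lower for Fkh1-FLAG (FLOP) (4.4% and 0.559%). The fork barrier spacer held 15 called windows of 20 for Fkh1-MYC in G1 cells and 2 in unsynchronized cells, and 0 and 0 for Fkh1-FLAG. For Fkh1-MYC the median log2 ratio there was 0.64 in G1 and 0.46 in unsynchronized cells, on either side of the fold minimum. The interaction test between cultures, given below, called 0 windows for Fkh1-MYC. The 35S segments held 2 windows called higher in each copy for Fkh1-MYC in G1 cells and 2 and 3 in unsynchronized cells, and none for Fkh1-FLAG. The second 5S window was called for all but Fkh1-FLAG in G1 cells, the last window of the array for Fkh1-MYC in both cultures, and the first 5S window for Fkh1-MYC in G1 cells.

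Among windows of the first copy, 459001 had the largest ratio in each of these 4 comparisons. It was also the window of the largest Orc1-HA ratio, though not the densest one of Orc1-HA. In G1 libraries its density was 2.86, 3.76 and 3.11 in Fkh1-MYC (MOP), against 0.845, 0.772 and 0.895 in MOP (log2 1.95, SE 0.10, edgeR adjusted p = 2.59e-34). It was 4.43, 4.14 and 4.83 in Fkh1-FLAG (FLOP) G1, against 1.28, 1.30 and 1.09 in FLOP G1 libraries (log2 1.87, SE 0.091, edgeR adjusted p = 1.73e-40). No control library came near the Fkh1 values in either pair. In unsynchronized cells it was 3.61, 3.73 and 3.72 in Fkh1-MYC (MOP), against 0.959, 1.13 and 1.03 in MOP libraries (log2 1.83, SE 0.052). For FLAG it was 2.26, 2.12 and 2.38 in Fkh1-FLAG (FLOP), against 0.952, 0.949 and 0.959 in FLOP libraries (log2 1.24, SE 0.037).

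The peak of the ratio was narrowest for Fkh1-FLAG in G1 cells. Inside the first origin spacer it stayed above the middle between 1 and its summit over 400 to 450 bp for Fkh1-FLAG (FLOP) G1, 600 to 650 bp for Fkh1-MYC (MOP), 800 to 850 bp for Fkh1-FLAG (FLOP) and 850 to 900 bp for Fkh1-MYC (MOP) G1. The controls under these ratios differed in their own profiles, as FLOP G1 was denser towards the 5S gene and MOP G1 was flat across the spacer in the plot of densities.

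The windows called lower lay in the 35S genes, the other side of a fixed total. For Fkh1-MYC (MOP) in G1 cells they ran from 452201 to 457100 in the first unit (98 windows). At window 455601 density was 0.517, 0.415 and 0.434 in Fkh1-MYC (MOP) G1 libraries, against 1.03, 1.06 and 0.996 in MOP G1 libraries (log2 -1.18, SE 0.11, edgeR adjusted p = 1.21e-16). By level, no 35S window was called lower in that comparison, and the median log2 ratio of levels over the 35S windows of the first copy was 0.62. The density of 35S in both copies was 0.695 ± 0.057 in Fkh1-MYC (MOP) G1 and 1.03 ± 0.017 in MOP G1 cells, and 0.625 ± 0.042 in Fkh1-FLAG (FLOP) G1 and 0.908 ± 0.013 in FLOP G1 cells (SD, n = 3 each). For Fkh1-FLAG in G1 cells the count of called windows fell to 142, 129 and 136 without FLOP G1 replicate 3, Fkh1-FLAG (FLOP) G1 replicate 1 and Fkh1-FLAG (FLOP) G1 replicate 3, of which 39, 36 and 40 were higher.

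**Figure D5:**
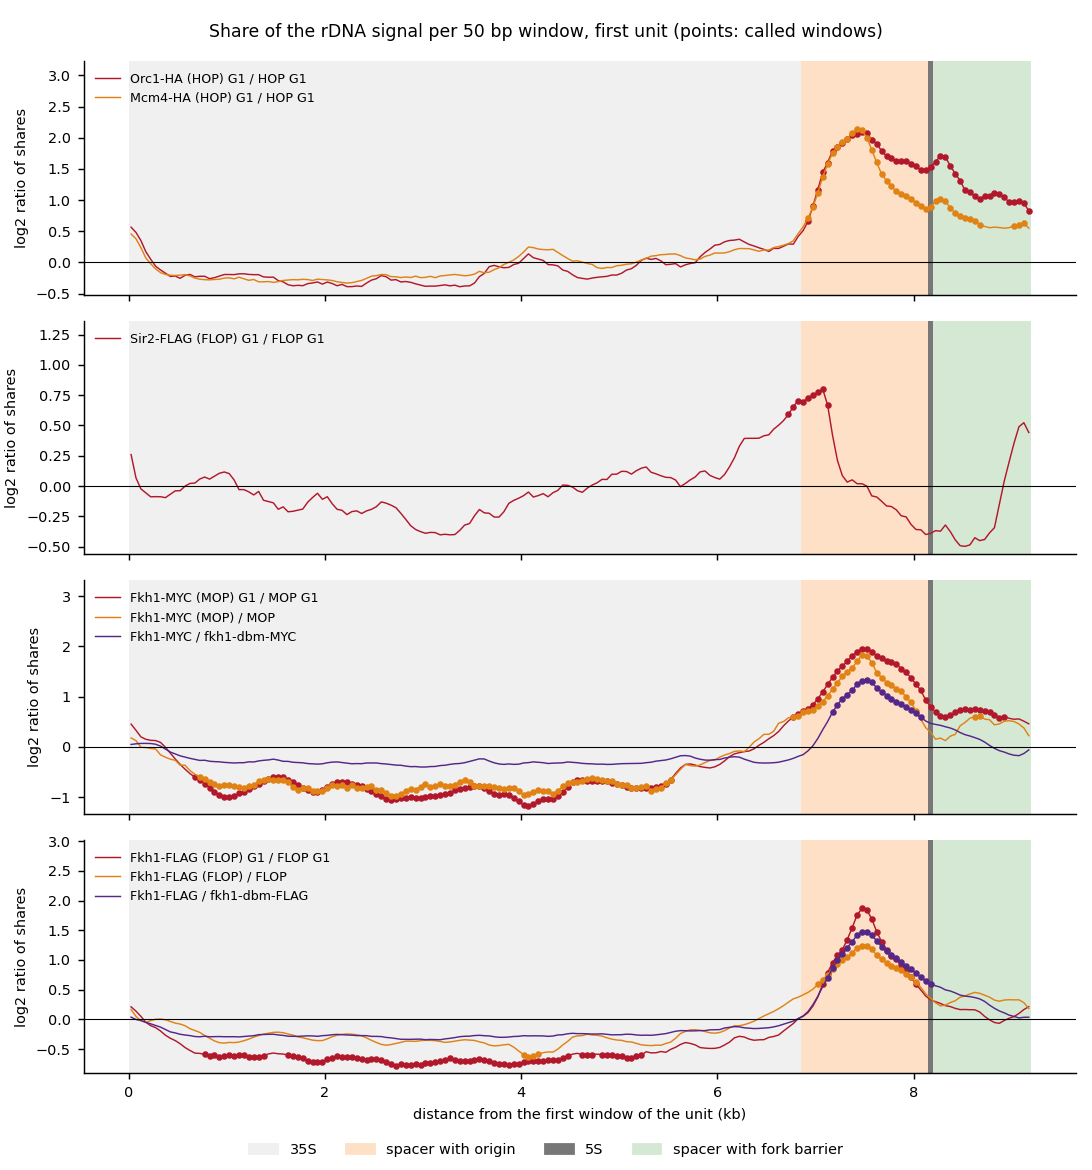
Log2 ratio of the share of the rDNA signal per 50 bp window along the first unit (distance in kb), from edgeR, with called windows as points and shading for the segments. The Fkh1 ratios peak in the origin spacer against LexA controls and against fkh1-dbm alike, while the Sir2-FLAG ratio peaks at 0.80 next to the 35S segment.

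By level, edgeR called windows for Fkh1-MYC and none for Fkh1-FLAG, and the difference between tags was not tested. The rDNA level was 2634, 1006 and 1352 in Fkh1-MYC (MOP) G1 libraries, against 428, 1032 and 522 in MOP G1 libraries, higher in 8 of 9 pairs. Here 51 windows were called higher and 0 lower (7.03% and 1.13% of all windows tested), 24 in each origin spacer. This count was 2 without MOP G1 replicate 1, 2 without MOP G1 replicate 3 and 32 without Fkh1-MYC (MOP) G1 replicate 3. In unsynchronized cells the level was 179, 145 and 247 in Fkh1-MYC (MOP), against 129, 94.7 and 97.6 in MOP libraries, higher in 9 of 9 pairs, with 89 windows called higher and 0 lower (3.81% and 0.424%), and 54 without MOP replicate 2 or replicate 3.

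For Fkh1-FLAG the level was 59.9, 181 and 105 in Fkh1-FLAG (FLOP) G1 libraries, against 64.1, 65.7 and 77.2 in FLOP G1 libraries, and 105, 145 and 175 in unsynchronized Fkh1-FLAG (FLOP), against 113, 186 and 110.3 in FLOP libraries. Both pairs overlapped. In G1 cells edgeR called 0 windows higher and 0 lower (1.54% and 0.0262% of all windows), with 39 at an unadjusted p under 0.05, and 50 and 10 were called without Fkh1-FLAG (FLOP) G1 replicate 1 and replicate 2. In unsynchronized cells edgeR called 0 higher and 0 lower (4.38% and 0.555%), with 35 at an unadjusted p under 0.05, and 35 and 10 without FLOP replicate 2 and Fkh1-FLAG (FLOP) replicate 1.

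Whether the Fkh1 contrast differed between cultures was tested with an interaction term. For Fkh1-FLAG, 3 windows had a larger ratio to the control in G1 than in unsynchronized cells and 0 a smaller one (0.109% and 0.349% of all windows tested), a pair of them from 459001 to 459100 and 1 in the second copy (468151). At 459001 the difference of log2 ratios was 0.63 (SE 0.095, edgeR adjusted p = 8.75e-06). No window was called without FLOP G1 replicate 3 or Fkh1-FLAG (FLOP) G1 replicate 3, 1 without Fkh1-FLAG (FLOP) replicate 2, 5 without Fkh1-FLAG (FLOP) replicate 3, FLOP G1 replicate 1 or FLOP G1 replicate 2, and 6 without Fkh1-FLAG (FLOP) G1 replicate 2.

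For Fkh1-MYC, edgeR called 0 windows either way (0.404% and 0.0519% of all), with 43 at an unadjusted p under 0.05, and DESeq2 called 0. At 459001 the difference of log2 ratios was 0.13 (SE 0.11, edgeR adjusted p = 0.870). The count was 8 without MOP replicate 1, 2 without MOP replicate 3, 3 without Fkh1-MYC (MOP) replicate 2, 1 without MOP G1 replicate 1, 4 without MOP G1 replicate 3 and 5 without Fkh1-MYC (MOP) G1 replicate 1.

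Against the DNA-binding mutant, Fkh1 overlapped in the level of the rDNA and stood apart in its profile. The level was 278, 242 and 293 in Fkh1-MYC libraries, against 257, 291 and 248 in fkh1-dbm-MYC libraries (log2 0.031, SE 0.11), and 351, 332 and 321 in Fkh1-FLAG libraries, against 266, 371 and 309 in fkh1-dbm-FLAG libraries (log2 0.10, SE 0.14). The origin spacer had a density of 2.001, 1.96 and 1.95 in Fkh1-MYC libraries, against 1.14, 1.12 and 1.19 in fkh1-dbm-MYC libraries, and 1.47, 1.53 and 1.61 in Fkh1-FLAG libraries, against 0.779, 0.779 and 0.828 in fkh1-dbm-FLAG libraries. Neither pair overlapped, with ratios of 1.71-fold for MYC and 1.93-fold for FLAG.

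By share, 40 windows were called higher in Fkh1-MYC than in fkh1-dbm-MYC and 0 lower (7.82% and 0.483% of all windows tested), and 46 higher in Fkh1-FLAG than in fkh1-dbm-FLAG and 0 lower (4.89% and 0.161%). The runs in the first unit were 458701 to 459650 (19 windows) for MYC and 458651 to 459750 (22 windows) for FLAG, and no window of the fork barrier spacer was called with either tag. At window 459051 density was 2.78, 2.62 and 2.70 in Fkh1-MYC libraries, against 1.06, 1.05 and 1.11 in fkh1-dbm-MYC libraries (2.51-fold, log2 1.33, SE 0.026, edgeR adjusted p = 1.07e-125). At window 459001 it was 2.02, 2.10 and 2.26 in Fkh1-FLAG libraries, against 0.740, 0.757 and 0.793 in fkh1-dbm-FLAG libraries (2.79-fold, log2 1.48, SE 0.038, edgeR adjusted p = 3.27e-81).

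The mutant's own profile was set against the untagged strain in 2 comparisons added after seeing the data. The fkh1-dbm-MYC libraries had a higher share than untagged anti-MYC in 24 windows and a lower one in 4 (1.42% and 3.55% of all windows tested), 11 of them in a run across the 35S promoter (458101 to 458650). At window 458351 density was 1.82, 1.75 and 1.86 in fkh1-dbm-MYC libraries, against 0.961, 1.05 and 1.08 in untagged libraries (log2 0.80, SE 0.055, edgeR adjusted p = 1.39e-27). The windows called lower lay in the fork barrier spacer, with a density at 459901 of 0.998, 0.982 and 1.01 in fkh1-dbm-MYC libraries, against 2.05, 1.76 and 1.76 in untagged libraries. For fkh1-dbm-FLAG against untagged anti-FLAG, 4 windows were called higher and 0 lower (1.09% and 1.98%), all in the fork barrier spacer. The part of the array called higher was thus near that of all windows. That count was 11, 10 and 10 without untagged replicate 1, untagged replicate 2 and fkh1-dbm-FLAG replicate 1, and 0 without untagged replicate 3 or fkh1-dbm-FLAG replicate 3.

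The LexA controls differed from the untagged strain, and not alike. The origin spacer had a density of 0.894, 0.906 and 0.920 in FLOP libraries, against 0.612, 0.603 and 0.514 in untagged anti-FLAG libraries, and 0.558, 0.715 and 0.651 in HOP libraries, against 0.424, 0.430 and 0.467 in untagged anti-HA libraries. MOP stood at 0.892, 1.04 and 0.989, and untagged cells with anti-MYC at 1.20, 1.11 and 1.07. FLOP and HOP were thus higher and MOP lower, each without overlap. By share, 56 windows were called higher in FLOP and 0 lower (2.65% and 3.93% of all windows tested), from 458751 to 460500 in the first unit. At window 459651 density was 1.07, 1.05 and 1.05 in FLOP libraries, against 0.634, 0.618 and 0.514 in untagged libraries (log2 0.85, SE 0.059, edgeR adjusted p = 5.04e-24).

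For HOP, 17 windows were called higher and 0 lower than in untagged anti-HA cells (0.292% and 0.234% of all windows tested), 8 of them from 459551 to 459950 around the 5S gene. The count was 10, 5 and 8 without untagged anti-HA replicate 1, HOP replicate 2 and HOP replicate 3, and 36 and 71 without untagged anti-HA replicate 3 and HOP replicate 1. For MOP, edgeR called 0 windows either way (0.0384% and 0.0457%), with 75 at an unadjusted p under 0.05, and DESeq2 called 0. The level of the rDNA was 113, 186 and 110.3 in FLOP libraries, against 174, 299 and 311 in untagged anti-FLAG libraries, lower in 8 of 9 pairs. It was 167, 86.0 and 107 in HOP libraries, against 234, 289 and 210.2 in untagged anti-HA libraries, lower in 9 of 9. MOP stood at 129, 94.7 and 97.6, and untagged cells with anti-MYC at 54.7, 53.3 and 101, higher in MOP in 7 of 9.

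G1 and unsynchronized libraries of the LexA strains differed in rDNA level, in opposite directions. The level was 428, 1032 and 522 in MOP G1 libraries, against 129, 94.7 and 97.6 in MOP libraries (5.79-fold), and 1592, 1568 and 2476 in HOP G1 libraries, against 167, 86.0 and 107 in HOP libraries (15.9-fold). It was 64.1, 65.7 and 77.2 in FLOP G1 libraries, against 113, 186 and 110.3 in FLOP libraries (log2 -0.94, SE 0.26), and none of the 3 pairs overlapped. For HOP the antibodies differed as well, 12CA5 in G1 and 12CA5 with 16B12 in unsynchronized cells, so culture and antibody cannot be told apart. The median level of single-copy windows on the left arm of chromosome XII (400 to 440 kb) moved with this, at 2.64 ± 0.24 in MOP G1 and 1.45 ± 0.082 in MOP cells, 2.09 ± 0.28 in HOP G1 and 1.13 ± 0.086 in HOP cells, and 1.26 ± 0.073 in FLOP G1 and 1.52 ± 0.038 in FLOP cells. Its part in the rDNA levels was not tested, and densities do not use this scale.

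The profiles of the LexA strains differed between cultures too. HOP G1 had 20 windows with a higher share than HOP and 81 with a lower one (23.3% and 1.39% of all windows tested), and a run of 47 lower ones filled 458351 to 460700, from the 35S promoter to the far part of the fork barrier spacer. At window 458701 density was 0.186, 0.175 and 0.186 in HOP G1 libraries, against 0.492, 0.606 and 0.592 in HOP libraries (log2 -1.63, SE 0.087, edgeR adjusted p = 6.10e-35). FLOP G1 had 35 windows with a higher share than FLOP and 0 lower (5.47% and 0.933%), in 459201 to 459850 and 459951 to 460450 of the first unit. At window 460301 density was 2.10, 2.16 and 2.11 in FLOP G1 libraries, against 1.19, 1.19 and 1.19 in FLOP libraries (log2 0.83, SE 0.046, edgeR adjusted p = 3.42e-27). MOP G1 had 0 windows higher and 4 lower (5.14% and 0.575%), all in the fork barrier spacer. At window 459901 density was 0.879, 0.791 and 0.924 in MOP G1 libraries, against 1.497, 1.86 and 1.64 in MOP libraries (log2 -0.95, SE 0.065, edgeR adjusted p = 4.55e-30). The MOP G1 count was 8, 7 and 8 without MOP replicate 1, MOP G1 replicate 1 and MOP G1 replicate 3.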

How the data were processed

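ChIP-seq libraries of 20 groups, 3 per group, were analysed. Per the methods of the study, the authors used Bowtie2 to map paired-end reads, SAMtools to take out duplicates and bedtools to count reads over 50 bp windows, and the deposited counts are whole numbers that were neither scaled nor smoothed. How reads that map to several places were treated is not given in the sources used here, and a read is counted in every window it overlaps, so neighbouring windows share reads. The authors scaled by the 20th percentile, smoothed over 500 bp and averaged replicates afterwards, and none of this was applied to the files. The members, comparisons and lists were chosen with earlier results of these data known.

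Windows that reached 10 counts in 3 or more libraries were tested with edgeR 4.0.16 (R 4.3.3) in a quasi-likelihood fit of the groups compared. For levels the offset was the 20th percentile of the library, and for shares it was the rDNA total in rDNA windows and the 20th percentile elsewhere. P-values were adjusted by Benjamini-Hochberg over all windows tested, and a window was called at an adjusted p under 0.05 and 1.5-fold. DESeq2 1.42.0 with the same factors was an alternative. The edgeR test by share was run on simulated counts for Orc1-HA in G1 cells and unsynchronized Fkh1-MYC (MOP), each against its control. Known changes were placed only in windows outside the rDNA, and the other tests were not simulated. Named were all segments and, for each comparison by share, the 2 windows with the largest fold in each direction among called windows that moved the same way in all 9 pairs of libraries, windows within 150 bp counted together. Segment means were compared with two-sided exact permutation tests on the log2 scale. The 25S, 18S and transcribed spacer parts were placed with the R64 RefSeq annotation, whose build was not checked against the files. No 2 libraries of a group held the same counts. Sequences are not shown, since no genome was used here.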

Additional observations from a re-analysis of the deposited data

Results flagged for a closer look

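The contrast between Fkh1-FLAG and its FLOP control was larger in G1 than in unsynchronized cells in 3 windows of the rDNA by the interaction test. Of all windows tested, 0.109% were called larger and 0.349% smaller. The windows from 459001 to 459100 are neighbours that share reads. The other, 468151, is their counterpart in the second copy, on which the same reads can lie. The count was 0 without FLOP G1 replicate 3 or Fkh1-FLAG (FLOP) G1 replicate 3.

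The LexA strains moved in opposite directions between G1 and unsynchronized cells, every library of one strain one way and every library of another the other way. Whether the strains differed in this was not tested. The log2 ratio of rDNA level, G1 over unsynchronized, was 2.53 for MOP, -0.94 for FLOP and 3.99 for HOP. For the density of the origin spacer it was -0.22 for MOP, 0.47 for FLOP and -1.29 for HOP. For the fork barrier spacer it was -0.51 for MOP, 0.61 for FLOP and -1.10 for HOP, and for 35S 0.086, -0.17 and 0.13 for MOP, FLOP and HOP.

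The LexA strains also differed in direction when set against the untagged strain with the same antibody, and this was not tested either. The log2 ratio of density, LexA strain over untagged, was -0.22 for MOP, 0.66 for FLOP and 0.54 for HOP in the origin spacer. In the fork barrier spacer it was -0.19 for MOP, 0.67 for FLOP and 0.47 for HOP, and in 35S 0.069, -0.13 and -0.071 for MOP, FLOP and HOP. Strain, tag and antibody go together in these sets and cannot be told apart.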

How the results depend on the processing

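No count of called windows turned direction under any alternative, and DESeq2, the fit without a filter and the fit over all libraries of an antibody kept each of the 20 counts by share within 1.5 times. The fold minimum mattered most. Shares of all windows were not computed at other fold minima, so the counts there only compare settings. At a fold of at least 2, the count was 0 for Sir2-FLAG, Orc1-HA against Mcm4-HA, FLOP, HOP, MOP G1, FLOP G1, both comparisons of fkh1-dbm with untagged cells and the Fkh1-FLAG interaction, 40 for Mcm4-HA, 76 and 25 for Fkh1-MYC and Fkh1-FLAG in G1 cells, 34 and 17 for the MYC-tagged and FLAG-tagged Fkh1 of unsynchronized LexA strains, and 18 and 25 for Fkh1-MYC and Fkh1-FLAG against fkh1-dbm. With no fold minimum it was 109 for Sir2-FLAG, 285 for Orc1-HA, 246 for Mcm4-HA, 66 for Orc1-HA against Mcm4-HA, 309 for Fkh1-FLAG (FLOP), 327 and 320 for Fkh1-MYC and Fkh1-FLAG against fkh1-dbm, 7, 246 and 162 for MOP, FLOP and HOP against untagged cells, 126, 251 and 268 for MOP, FLOP and HOP in G1 against unsynchronized cells, 159 and 194 for fkh1-dbm-MYC and fkh1-dbm-FLAG against untagged cells, and 22 and 19 for the Fkh1-MYC and Fkh1-FLAG interactions. With windows of the first copy only, as shares of that copy, fkh1-dbm-FLAG against untagged had 0 called windows.

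With the replicate number as a block, the counts by level were 5 for Mcm4-HA and 1 for Fkh1-MYC in G1 cells, and the other 25 counts stayed within 1.5 times. In 0 of 18 comparisons did every pair of same-numbered libraries deviate together, at a correlation over 0.1. This cannot show whether same-numbered libraries were prepared together. By level, unsynchronized Fkh1-FLAG (FLOP) had 3 called windows with TMM, 1 with DESeq2 size factors and 1 with the median of all windows.

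Leaving out 1 library moved several counts by over 1.5 times. By level they ran from 0 to 50 for Fkh1-FLAG in G1 cells, 0 to 35 for Fkh1-FLAG (FLOP), 2 to 62 for Fkh1-MYC in G1 cells, 54 to 109 for Fkh1-MYC (MOP) and 7 to 28 for Mcm4-HA. By share they ran from 0 to 6 and 0 to 8 for the Fkh1-FLAG and Fkh1-MYC interactions, 129 to 238 for Fkh1-FLAG in G1 cells, 5 to 71 for HOP, 3 to 8 for MOP G1, 2 to 31 for Orc1-HA against Mcm4-HA and 0 to 11 for fkh1-dbm-FLAG. The causes of these changes were not tested, beyond the fewer libraries in each fit. Scaling by the median of all windows changed 10 of 20 mean levels by more than their SD, all downwards, and a moving median over 10 windows changed 6 of 80 levels and densities. Depth limits the levels, which rest on 20th percentiles of 5 to 125 counts.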

Other observations

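Loci outside the array at which these proteins are known to act gave ratios to set beside those of the rDNA. At the silent mating-type genes, where Sir2 and the origin recognition complex act, the median window level at HML was 3.67 ± 0.36 in Sir2-FLAG (FLOP) G1 and 0.764 ± 0.14 in FLOP G1 cells (SD, n = 3 each), and 6.14 ± 0.80 in Orc1-HA (HOP) G1 and 1.02 ± 0.25 in HOP G1 cells. At HMR it was 3.55 ± 0.73 in Sir2-FLAG (FLOP) G1 and 1.83 ± 0.21 in FLOP G1 cells, and 8.48 ± 1.2 in Orc1-HA (HOP) G1 and 2.18 ± 0.038 in HOP G1 cells. Over the terminal 5 kb of the chromosomes it was 3.24 ± 0.73 in Sir2-FLAG (FLOP) G1 and 1.68 ± 0.18 in FLOP G1 cells. Sequence not chosen for Sir2 varied in the same groups. The single-copy windows on the left arm of chromosome XII were at 2.45 ± 0.53 in Sir2-FLAG (FLOP) G1 and 1.26 ± 0.073 in FLOP G1 cells. The tRNA genes outside chromosomes IV and XV were at 1.54 ± 0.13 in Sir2-FLAG (FLOP) G1 and 1.54 ± 0.12 in FLOP G1 cells. Whether HMR or the chromosome ends rose beyond the left arm was not tested. At the recombination enhancer of chromosome III, a cluster of Fkh1 sites, the mean level was 5.41 ± 0.79 in Fkh1-MYC (MOP) G1 and 1.25 ± 0.088 in MOP G1 cells, 1.47 ± 0.15 in Fkh1-FLAG (FLOP) G1 and 0.998 ± 0.036 in FLOP G1 cells, 12.5 ± 2.1 in Fkh1-MYC and 1.14 ± 0.045 in fkh1-dbm-MYC cells, and 4.24 ± 0.62 in Fkh1-FLAG and 0.943 ± 0.056 in fkh1-dbm-FLAG cells.

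The sequence beside the array was also higher with Sir2-FLAG. The median level of the 10 kb to its right was 5.91 ± 1.9 in Sir2-FLAG (FLOP) G1 libraries, against 1.89 ± 0.13 in FLOP G1 libraries (SD, n = 3 each), and that of the 10 kb to its left was 2.62, 3.86 and 2.50 in Sir2-FLAG (FLOP) G1 libraries, against 1.19, 1.27 and 1.35 in FLOP G1 libraries. Further left, at 400 to 440 kb, it was 2.13, 3.06 and 2.16 in Sir2-FLAG (FLOP) G1 libraries, against 1.21, 1.23 and 1.34 in FLOP G1 libraries. The groups did not overlap at any of these places, and no test was run on them. Whether the sequence to the right is single-copy was not checked.

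Several groups, controls among them, shared their densest origin window. The densest window of the first origin spacer was its first one, 458401, in all libraries of Sir2-FLAG (FLOP) G1 (1.88, 1.87 and 2.06), fkh1-dbm-MYC (1.81, 1.75 and 1.85) and fkh1-dbm-FLAG (1.20, 1.11 and 1.20), and also of MOP G1 (1.05, 0.952 and 1.05), HOP G1 (0.362, 0.359 and 0.360) and untagged anti-FLAG (0.912, 0.853 and 0.835). The 5′ external transcribed spacer had a density of 1.64 ± 0.051 in fkh1-dbm-MYC and 1.08 ± 0.048 in untagged anti-MYC cells, and 1.23 ± 0.048 in fkh1-dbm-FLAG and 1.05 ± 0.056 in untagged anti-FLAG cells (SD, n = 3 each). The 4 windows called higher by share for fkh1-dbm-FLAG against untagged cells, a part of the array near the 1.09% of all windows, lay in the fork barrier spacer. That count was 0 without untagged replicate 3 or fkh1-dbm-FLAG replicate 3.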
